A study of Mus musculus with 8 samples.

Results

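The comparison set mouse embryonic stem cells with the genotype label Virma_cKO (read here as a conditional knockout of Virma, a gene of the RNA methylation machinery) against cells of the Virma line labelled WT, all in a medium that induces primitive endoderm. Its members were all genes that passed a filter on low counts in the raw count table, 14229 of 21812 gene symbols, measured in 4 of the 8 libraries of the series. There were 2 libraries of Virma WT and 2 of Virma cKO, and all 4 libraries share the stem cell origin and the medium. The other 4 libraries, Mettl3 WT and Mettl3 cKO in the same medium, entered the fit to estimate the spread between libraries and are shown only beside exon density. How the deletion was induced, how long the cells spent in the medium and whether each genotype is 1 clone are not stated in the labels. By its title the series asks how RNA methylation bears on cell fate during primitive endoderm development. Here the question is which genes differed in level between the genotypes.

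N6-methyladenosine (m6A) is the most frequent internal modification of messenger RNA. It is written by METTL3 with METTL14, and VIRMA is the large scaffold protein that joins them with WTAP, ZC3H13 and RBM15 and steers methylation toward stop codons and the sequence after them. Methylated messages are recognised by YTH-domain readers, which can speed their decay, and by other proteins that can stabilise them. Primitive endoderm arises in the inner cell mass next to the pluripotent epiblast under FGF signalling. It is specified by the transcription factors GATA6, SOX17 and GATA4, and gives rise to the visceral and parietal endoderm of the yolk sac, which take up nutrients and lay down basement membrane.

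Total counts were 17306227 and 17235657 in the Virma WT libraries, and 15630124 and 15568628 in the cKO libraries. Counts of the cKO libraries differed by less than the sampling noise across 14680 genes (chi-square divided by its degrees of freedom 0.914), although by more in the 505 genes with the most reads (3.46). The same ratio was 1.31 in the Virma WT pair, with 0.778 and 0.858 in its genes of 10 to 100 and of 100 to 1000 reads. The cKO pair was therefore counted as 1 sample and the WT pair as 2, and values for the cKO group carry no SD. Since no label speaks of separate cultures, the p-values reflect only differences among libraries, and these may be technical. The labels name more than 1 library kit and do not say which served which library, so a difference of kit and one of genotype cannot be told apart. Values are normalised CPM (counts scaled to the effective library size) for each library, and log2 fold changes of cKO against WT with their standard errors (SE). A gene is called when its Benjamini-Hochberg adjusted p in edgeR's quasi-likelihood test is under 0.05, and "rose" and "fell" are used of called genes alone. In bulk RNA, fewer cells of a type and less RNA per cell cannot be told apart.

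Virma itself stood at 93.3 and 88.8 CPM in the WT libraries (91.0 ± 3.24, SD, n = 2) and at 70.8 and 73.8 CPM in those labelled cKO. The groups did not overlap, and the transcript fell by 0.33 on the log2 scale (SE 0.06, edgeR, adjusted p = 0.000102). Counts over a whole gene do not show which exons are missing, so this value does not check the label. Its direction and call were the same under every alternative tried, with log2 fold changes between −0.21 and −0.49.

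The difference between the genotypes reached 7439 of the genes tested (52.3%), split evenly into 3721 that rose (26.2%) and 3718 that fell (26.1%). These shares are the background against which the counts of every list below are to be read. Most changes were small: 4451 of the called genes (59.8%) changed by less than 1.5-fold, and their median log2 fold change without regard to sign was 0.5. With its sign, so that rises and falls cancel, the median log2 fold change over all genes was 0.02. At least 2-fold changes were called in 766 genes that rose (5.38%) and 513 that fell (3.61%). The extreme falls were larger and more frequent than the extreme rises, with 125 genes lower and 68 higher by at least 4-fold, and 34 lower and 8 higher by at least 8-fold. The genes that fell at least 2-fold had a median of 12.2 CPM in WT, against 2.46 CPM for the rises. The WT level also enters the fold change by which these genes were chosen, so part of this difference is set by the choice. Genes called at least 2-fold lower took 3.59 and 3.62% of all counts in the WT libraries and 1.25 and 1.26% in the cKO libraries. Genes called at least 2-fold higher went from 0.639 and 0.644% to 1.67 and 1.66%. In 12030 genes (84.5%) the libraries of the genotypes did not overlap. The even split depends on the scaling: with total counts in place of TMM factors, 4967 genes were called higher and 2624 lower (65.4% higher) and the median over all genes moved to 0.148, so a small change is best read relative to that shift.

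**Figure D1:**
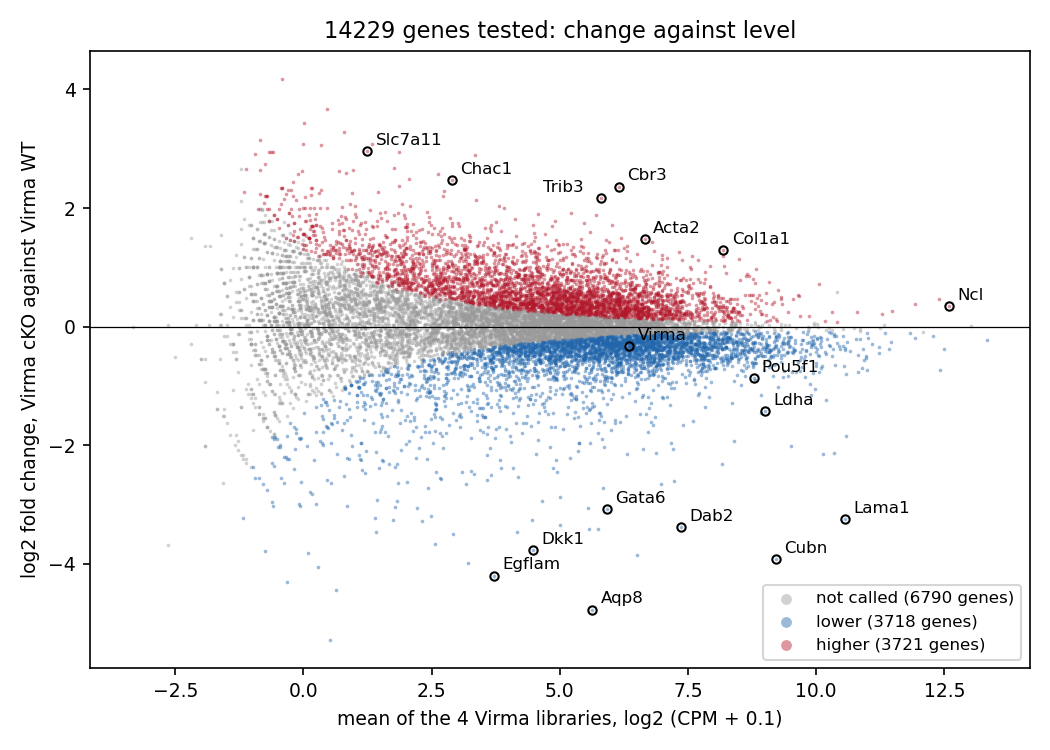
Each point is 1 of the 14229 genes tested, with its mean level in the 4 Virma libraries, log2 (CPM + 0.1), on the horizontal axis and the log2 fold change of Virma cKO against Virma WT on the vertical axis. The 3721 genes called higher, 3718 called lower and the genes not called are coloured, and among the genes marked by name Aqp8 (−4.77) and Egflam (−4.2) lie lowest and Slc7a11 (2.96) highest.

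The transcription factors of primitive endoderm were the most strongly lowered list. Gata6, a master regulator of the lineage, stood at 110.2 and 107 CPM in the WT libraries and 12.3 and 13.4 CPM in the cKO libraries. Gata4, its relative, stood at 213 and 216 CPM against 34.1 and 34.6 CPM, and Sox17, an HMG-box factor, at 35.3 and 39.1 CPM against 9.24 and 10.6 CPM. In each of the 3 genes both cKO libraries lay far below both WT libraries, with log2 fold changes of −3.08 (SE 0.09), −2.65 (SE 0.06) and −1.91 (SE 0.13) (edgeR, adjusted p of 2.38e-18, 5.72e-21 and 9.42e-12).

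The factors that act with or after them moved alike. Sox7, which marks later and parietal endoderm, stood at 96.3 and 98.9 CPM in the WT libraries and 9.3 and 9.06 CPM in the cKO libraries, a log2 fold change of −3.41 (SE 0.1). The forkhead factor Foxq1 fell by 2.72 (SE 0.08). Hnf4a, a nuclear receptor of visceral endoderm, was at only 4.36 and 4.95 CPM in the WT libraries and fell by 2.93 (SE 0.39), and Foxa2 fell by 1.35 (SE 0.15). Klf6 was the exception: it rose by 0.26 (SE 0.05), from 137 and 141 CPM to 165 and 169.5 CPM. Of the 9 factors 8 fell at least 2-fold and 1 rose, with a median of −2.72, against 26.1% lower and a median of 0.02 over all genes. The count of 8 was the same without each library in turn. Their summed level went from 799 and 808 CPM to 264 and 269.5 CPM.

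The products of the lineage fell with its factors. Among its 19 effectors, 17 were called lower and 1 higher (median −2.01). Much of the apical uptake machinery was among them. The endocytic receptor Cubn stood at 1131 and 1108 CPM in the WT libraries and 74.1 and 74.3 CPM in the cKO libraries, a log2 fold change of −3.92 (SE 0.04). Its membrane partner amnionless (Amn) fell by 3.26 (SE 0.17), the clathrin adaptor Dab2 by 3.38 (SE 0.06, from 306 and 298 CPM to 29.8 and 28.3 CPM), and megalin (Lrp2) by 2.32 (SE 0.05). The water channel Aqp8 went from 96.1 and 95.4 CPM to 3.5 and 3.46 CPM, a log2 fold change of −4.77 (SE 0.11), and the proteoglycan core protein Srgn fell by 3.85 (SE 0.09). Pdgfra, the receptor by which the lineage is often recognised, stood at 233 and 224 CPM against 56.3 and 61.5 CPM and fell by 1.96 (SE 0.05). In each of these genes the cKO libraries lay below the WT libraries without overlap.

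**Figure D2:**
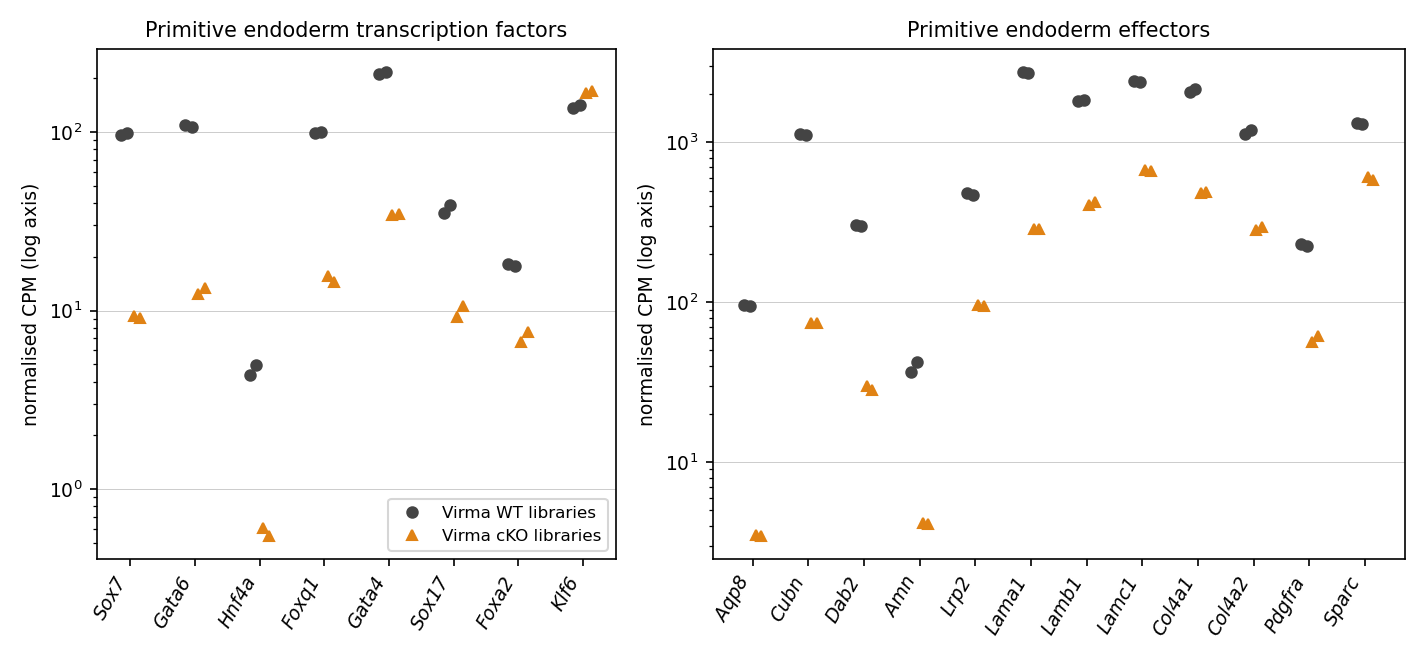
Normalised CPM on a log axis in each Virma WT library (circles) and Virma cKO library (triangles) for 8 of the 9 primitive endoderm transcription factors and 12 of the 19 effectors. Both cKO libraries lie below both WT libraries in every gene drawn except Klf6, which lies slightly above.

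Basement membrane genes did not move as a whole but chain by chain. The chains of laminin-111 that primitive endoderm secretes fell: Lama1 stood at 2743 and 2719 CPM in the WT libraries and 289 and 287 CPM in the cKO libraries, a log2 fold change of −3.25 (SE 0.03). Lamb1 fell by 2.14 (SE 0.03) and Lamc1 by 1.84 (SE 0.03). The type IV collagen chains Col4a1 and Col4a2, from a shared promoter region, fell by 2.13 (SE 0.03) and 2.01 (SE 0.04), and the matrix protein Egflam changed by a log2 fold change of −4.2 (SE 0.2), from 24.3 and 24.9 CPM to 1.33 and 1.4 CPM. Several chains of other laminins rose instead. Lamb3, a chain of epithelial anchorage, stood at 0.835 and 1.07 CPM in the WT libraries and 3.62 and 3.95 CPM in the cKO libraries and rose by 1.97 (SE 0.4). Lama2, a chain of muscle and mesenchyme, rose by 1.42 (SE 0.32). Of 22 basement membrane genes 11 fell and 8 rose (median −0.15), and their summed level was 16023 and 16227 CPM in the WT libraries and 6420.1 and 6407 CPM in the cKO libraries. Lama1, Lamb1, Lamc1, Col4a1, Col4a2 and Sparc, which fell, are also among the effectors counted above.

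Most genes of the more mature yolk sac endoderm were lower too. Of 13 visceral endoderm genes 9 fell and 1 rose (median −1.11), while their summed level differed less (1749.8 and 1827 CPM in the WT libraries, 1619 and 1641 CPM in the cKO libraries). The Wnt inhibitor Dkk1 stood at 41.7 and 40.9 CPM in the WT libraries and 2.96 and 3.04 CPM in the cKO libraries, a log2 fold change of −3.77 (SE 0.16). The membrane-anchored carbonic anhydrase Car4 fell by 3.34 (SE 0.12) and the hedgehog ligand Ihh by 1.85 (SE 0.22). Spink1 fell by 2.99 (SE 0.62) from a level of only 1.85 and 2.09 CPM. Cdh1, the epithelial cadherin, was the gene that rose (0.5, SE 0.03). The apolipoprotein genes, made in quantity by mature visceral endoderm, did not share these falls in size: Apoe fell by 0.22 (SE 0.04), and Apob (0.16) and Apoa1 (0.74) did not pass the test. Among genes for lipoproteins, endocytosis and nutrient transport, which share Cubn, Dab2, Amn and Lrp2 with the effectors, 13 of 18 fell and 0 rose (median −1.51). The zinc and manganese carrier Slc39a8 fell by 2.44 (SE 0.19). Of 10 parietal endoderm genes 4 fell, led by the hormone receptor Pth1r (−2.06, SE 0.06), and 4 rose (median −0.01), among them the keratins Krt8 (0.48) and Krt18 (0.54).

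Markers of fibroblasts, which can be present in stem cell cultures as feeder cells, differed in the same libraries. Of 23 fibroblast and interstitial matrix genes tested, 21 rose and 0 fell, with a median of 1.22. Col1a1, a chain of type I collagen, stood at 170.0 and 168 CPM in the WT libraries and 421 and 407 CPM in the cKO libraries (log2 fold change 1.29, SE 0.04). The crosslinking enzyme Lox rose by 1.4 (SE 0.11), the mesenchymal homeodomain factor Prrx1 by 1.38 (SE 0.16) and the proteoglycan Dcn by 1.32 (SE 0.15). Fbln1 (0.03) and Mfap5 (0.36) were not called. The summed level of the list was 792 and 797 CPM in the WT libraries and 1633 and 1629 CPM in the cKO libraries, and none of its genes was at 0 in all 4 libraries. No source used here says whether feeder cells were present, and the part of these markers in the other results was not tested.

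Genes that fibroblasts share with other contractile or migrating cells moved with them. Of 19 contractile genes and targets of the serum response factor 14 rose and 1 fell (median 0.59). Smooth muscle actin (Acta2) stood at 54.2 and 51.5 CPM against 148 and 148 CPM and rose by 1.48 (SE 0.06). The light chain Myl9 rose by 1.35 (SE 0.16) and Tagln by 1.34 (SE 0.09), while Actb, the cytoplasmic actin, stood at −0.03 and was not called. Of 21 matrix proteases and inhibitors 14 rose and 4 fell (median 0.64). The gelatinase Mmp9 stood at 27.3 and 32.4 CPM in the WT libraries and 102 and 95.2 CPM in the cKO libraries, a rise of 1.72 (SE 0.08), whereas the lysosomal protease Ctsl fell by 1.02 (SE 0.03). Integrin and dystroglycan genes rose in 8 of 18 and fell in 2, led by the collagen receptor subunit Itga1 (1.51, SE 0.18). The fibroblast sums given above stand beside the contractile, protease and integrin lists, and their part was not tested. Epithelial junction and keratin genes are a list of another kind. They rose in 15 of 26 and fell in 4 (median 0.28), led by Cldn3, a tight junction claudin (1.6, SE 0.08).

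**Figure D3:**
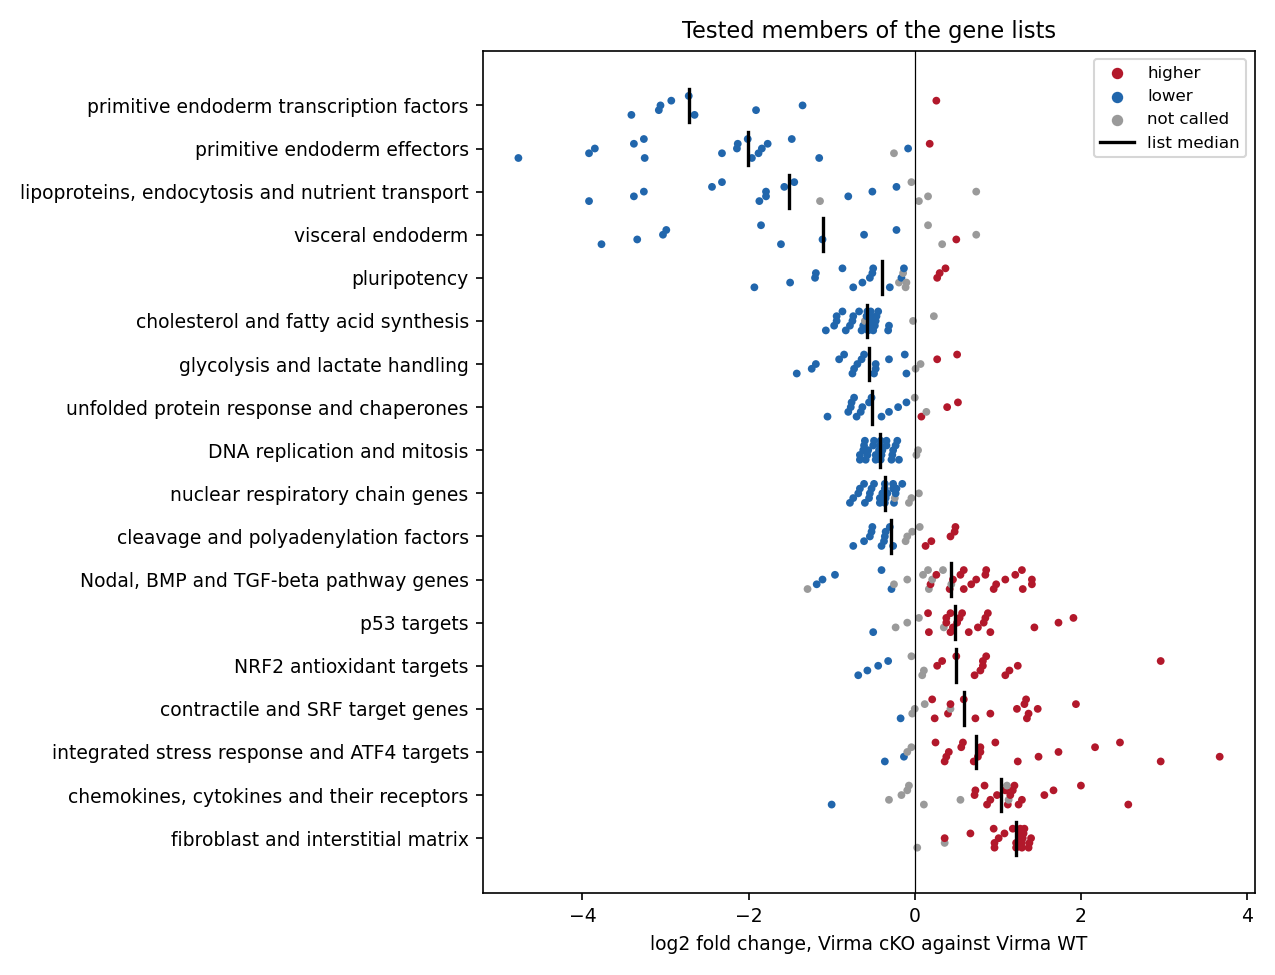
Log2 fold changes of Virma cKO against Virma WT for each tested member of 18 gene lists, coloured by call, with the list median as a black bar. The 4 endoderm and nutrient uptake lists drawn have medians of −2.72, −2.01, −1.51 and −1.11, cholesterol synthesis and replication lie closer to 0 (−0.57 and −0.42), and the fibroblast list has its median at 1.22.

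Ligands and receptors of signalling pathways went both ways. In the FGF pathway 12 of 25 genes fell and 10 rose (median −0.34). The ligand Fgf10 stood at 32.3 and 33.1 CPM in the WT libraries and 2.96 and 2.98 CPM in the cKO libraries, and Fgf3 at 14 and 13.3 CPM against 1.21 and 1.22 CPM. Both fell without overlap, with log2 fold changes of −3.46 (SE 0.18) and −3.49 (SE 0.24). Fgf4, the ligand by which epiblast cells induce primitive endoderm, fell less (−0.63, SE 0.11). The receptors Fgfr2, Fgfr3 and Fgfr4 fell by 1.29 (SE 0.08), 1.69 (SE 0.25) and 1.81 (SE 0.17), whereas Fgfr1 rose by 0.41 (SE 0.04). Of the inhibitors that ERK signalling itself induces, Spry2 and Spry4 fell (−0.79 and −0.62) while Dusp6 (0.62) and Spred1 (0.64) rose. The median of this list was −0.05 when only genes of at least 1 CPM in all libraries of a group were kept.

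The cytokine receptor Lifr, through which LIF maintains naive stem cells, stood at 60.9 and 59.4 CPM in the WT libraries and 12.9 and 13 CPM in the cKO libraries and fell by 2.22 (SE 0.09). The ligand Lif (1.09, SE 0.14), the kinase Jak2 (0.92, SE 0.1) and the related receptor Osmr (0.94, SE 0.2) rose, so that 6 of 16 genes of this pathway rose and 6 fell. In the Nodal, BMP and TGF-beta pathways 19 of 33 genes rose and 5 fell (median 0.44; 3 fell without replicate 2 of Virma WT). The activin subunit Inhba, at 10.4 and 11 CPM against 27.9 and 29.2 CPM, and Ltbp2, a binding protein of the TGF-beta family, each rose by 1.41 (SE 0.15 and 0.16), and the ligands Tgfb2 and Tgfb3 by 1.21 and 1.29. The Nodal coreceptor Tdgf1 fell by 1.18 (SE 0.06) and the Nodal inhibitor Lefty1 by 1.11 (SE 0.05), while Nodal rose by 0.68 (SE 0.06). Several of these TGF-beta genes are also expressed by fibroblasts, whose markers rose as given above, and their part was not tested.

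Of 27 Wnt genes 6 rose and 6 fell, where 26.2% and 26.1% of all genes did. After Dkk1 the largest fall was in Sfrp5, an extracellular Wnt inhibitor (−0.99, SE 0.13), and the largest rise in Sp5, a direct transcriptional target of the pathway, which stood at 7.34 and 7.99 CPM in the WT libraries and 27 and 26.9 CPM in the cKO libraries (1.81, SE 0.14). In the retinoic acid pathway 6 of 19 rose and 5 fell, also near the shares of all genes. Its degrading enzyme Cyp26a1 fell from 102 and 103 CPM to 32.9 and 33.3 CPM (−1.63, SE 0.06). Hippo and YAP target genes rose in 11 of 21 and fell in 4, with the scaffold Amot lower by a log2 fold change of −1.66 (SE 0.06) and Ajuba higher by 1.12 (SE 0.05). Among chemokines, cytokines and their receptors, a list near the floor of detection with a summed level of 196 to 314 CPM per library, 17 of 26 rose and 1 fell (median 1.04). Lymphotoxin beta (Ltb) stood at 1.79 and 1.67 CPM against 10.6 and 10.1 CPM and rose by 2.57 (SE 0.23). The platelet chemokine Ppbp rose by 1.67 (SE 0.16) and the macrophage growth factor Csf1 by 1.56 (SE 0.12), while Kit fell by 1.0 (SE 0.08). Interferon and double-stranded RNA response genes rose in 11 of 25 and fell in 1 (median 0.36), or in 4 without replicate 1 or replicate 2 of Mettl3 WT. Without replicate 1 of Virma WT the median was 0.56. Those that rose included Sting1, an adaptor of DNA sensing (1.25, SE 0.1), and the nucleic acid sensor Zbp1 (1.49, SE 0.36).

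Pluripotency genes were also lower, by less than the endoderm genes. Of 20 members 13 fell and 3 rose (median −0.40). Pou5f1, which encodes OCT4, stood at 559 and 574 CPM in the WT libraries and 310.1 and 311 CPM in the cKO libraries, and Nanog, which opposes GATA6, at 138 and 134 CPM against 58.7 and 60.7 CPM. They fell by 0.87 (SE 0.04) and 1.19 (SE 0.06) without overlap (edgeR, adjusted p of 1.95e-15 and 4e-14). The developmental gene Dppa5a fell by 1.93 (SE 0.04), Klf5 by 1.2 (SE 0.06) and Prdm14 by 1.5 (SE 0.36). Sox2, the partner of OCT4, stood at 60.7 and 64.8 CPM against 59.5 and 57.8 CPM and was not called (−0.1, SE 0.07). Esrrb (0.3), Klf2 (0.37) and Dppa4 (0.27) rose. Of 16 formative and primed epiblast genes 7 fell and 4 rose, with falls of the de novo DNA methylation genes Dnmt3b (from 319 and 332 CPM to 125 and 131 CPM, −1.35, SE 0.04) and Dnmt3l (−1.6, SE 0.06), and a rise of Sox4 (0.6, SE 0.05). The median of that list was −0.14, and −0.01 with total counts as scaling.

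Other fates showed no common direction, and some early and germline genes were higher. Of 15 trophectoderm genes 5 fell and 3 rose, where 26.1% and 26.2% of all genes did, with Tfap2a higher by 1.19 (SE 0.28). Of 15 primitive streak and mesoderm genes 4 fell and 0 rose, and of 10 neuroectoderm genes 2 fell and 1 rose. Sox1, a neural factor, had the largest change there (−2.39, SE 0.36). Without replicate 2 of Virma WT 2 of the streak genes fell. In neuroectoderm 1 gene fell without replicate 1 or 2 of Virma WT or replicate 1 of Virma cKO, 0 rose without replicate 1 of Virma WT, and 2 rose without replicate 1 of Virma cKO or either Mettl3 WT library. Germline genes rose in 7 of 17 and fell in 2 (median 0.38; 1 fell without replicate 2 of Virma WT or replicate 1 of Virma cKO). Those that rose included Taf7l, a testis-specific subunit of a general transcription factor, at 13.1 and 13.6 CPM in the WT libraries and 44.8 and 47.6 CPM in the cKO libraries (1.79, SE 0.1). Rpl10l rose by 1.88 (SE 0.08), but its sequence is nearly that of Rpl10 and the authors' counting may split their reads. Of 9 genes of the 2-cell-like state 6 rose and 0 fell (median 0.77), among them Zscan4d (1.37, SE 0.22). Without replicate 1 or replicate 2 of Virma WT, 3 and 2 of the 9 rose, and the Zscan4 copies are nearly identical, so this list is uncertain.

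Markers of cell types other than fibroblasts had no direction shared by all lists, though more endothelial markers fell than rose. Of 11 endothelial markers 6 fell and 1 rose (summed level 107 and 109 CPM in the WT libraries, 80.77 and 79.33 CPM in the cKO libraries), among them the endothelial cadherin Cdh5 (−1.76, SE 0.23). Only 3 of 12 blood markers passed the filter, and the globin gene Hbb-bt was at 0 in all 4 libraries. Of 8 neuron and glia markers 3 rose and 2 fell. The rises numbered 0 without replicate 2 of Virma WT and 1 without replicate 1 of Virma WT, replicate 2 of Virma cKO or either Mettl3 cKO library. Stmn2, a neuronal tubulin-binding gene, fell from 89.8 and 89.4 CPM to 24.8 and 23.6 CPM (−1.89, SE 0.08). Of 9 muscle markers 2 rose and 1 fell, and 4 rose without either Mettl3 WT library in turn.

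Genes of several stress responses were higher. In the integrated stress response, which lowers general translation while raising translation of the transcription factor ATF4, 18 of 22 genes rose and 2 fell (median 0.74). Trib3, a pseudokinase that restrains ATF4, stood at 20.5 and 19.9 CPM in the WT libraries and 92.4 and 90.1 CPM in the cKO libraries, and Chac1, which degrades glutathione, at 2.45 and 2.03 CPM against 12.4 and 12.5 CPM. They rose by 2.17 (SE 0.08) and 2.47 (SE 0.26) without overlap (edgeR, adjusted p of 1.93e-16 and 1.78e-08). The cystine carrier Slc7a11 rose by 2.96 (SE 0.44) from only 9 and 8 reads to 71 and 62. The hormone gene Fgf21 held 3 and 3 reads in the WT libraries and 41 and 37 in the cKO libraries, and no fold is given for it. Atf4 itself rose by 0.41 (SE 0.03) and Ddit3, which encodes CHOP, by 0.76 (SE 0.1). Asns, the asparagine synthetase and a target of ATF4, went the other way, from 337 and 344 CPM to 266 and 265 CPM (−0.36, SE 0.04). The count of 18 was the same without each library in turn, and that of 2 was 1 without either Virma WT library, replicate 1 of Virma cKO or either Mettl3 cKO library.

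Most genes in the chaperone arm of the unfolded protein response moved opposite to the ATF4 arm. Of 19 genes 14 fell and 3 rose (median −0.52). The endoplasmic chaperones Calr and Hsp90b1 stood at 2270.4 and 2287 CPM and 1947 and 1927 CPM in the WT libraries and at 1346 and 1342 CPM and 1113 and 1116 CPM in the cKO libraries, log2 fold changes of −0.76 (SE 0.03) and −0.8 (SE 0.03). Herpud1, of the degradation machinery, fell by 1.05 (SE 0.12), and Xbp1, a transcription factor of this arm, by 0.77 (SE 0.07). The sensor Ern1, which splices Xbp1, rose by 0.52 (SE 0.14). The abundant chaperone Hspa5 did not share the falls. It stood at 1345 and 1297 CPM in the WT libraries and 1383 and 1409.7 CPM in the cKO libraries (0.08, SE 0.03). Canx was not called (0.0, SE 0.03). Heat shock proteins of the cytosol fell in 8 of 15 and rose in 4 (2 without replicate 2 of Virma WT), with Hspb1 (−0.77, SE 0.04) at one end and Hspa1a (0.73, SE 0.16) at the other.

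In the list of the tumour suppressor p53 and its targets 19 of 24 genes rose and 1 fell (median 0.49; 2 fell without either Mettl3 WT library in turn). Mdm2, which marks p53 for degradation, stood at 279.7 and 282 CPM in the WT libraries and 503 and 513 CPM in the cKO libraries, and Cdkn1a, the cell cycle inhibitor p21, at 79 and 81 CPM against 127 and 124 CPM. They rose by 0.85 (SE 0.03) and 0.65 (SE 0.06). The nuclease Aen rose by 0.91 (SE 0.05), the membrane protein Perp by 0.88 (SE 0.07) and Ddit4l, an inhibitor of mTOR signalling, by 1.91 (SE 0.1), whereas the transcript of p53 itself (Trp53) was the 1 member that fell, from 191 and 193 CPM to 137 and 134 CPM (−0.5, SE 0.05). Cell death regulators rose in 13 of 26 and fell in 3, with the initiator caspase Casp8 at 7.16 and 6.92 CPM against 20.5 and 22.6 CPM (1.61, SE 0.15) and the executioner of necroptosis Mlkl (1.3, SE 0.29) highest, and Casp9 lowest (−0.63, SE 0.13). Targets of NRF2, the antioxidant transcription factor, rose in 12 of 19 and fell in 4 (median 0.50). Gclm, which limits glutathione synthesis, rose by 1.14 (SE 0.05) and Nqo1 by 1.09 (SE 0.07). The carbonyl reductase Cbr3, outside these lists, stood at 23.7 and 22.6 CPM in the WT libraries and 121 and 118 CPM in the cKO libraries and rose by 2.36 (SE 0.09). Of the immediate early genes 11 of 20 rose and 6 fell, and the AP-1 subunits divided, with Fosl1 (1.38, SE 0.16) and Fosl2 (1.18, SE 0.11) higher and Fosb (−0.59, SE 0.11) and Jun (−0.46, SE 0.05) lower.

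**Figure D4:**
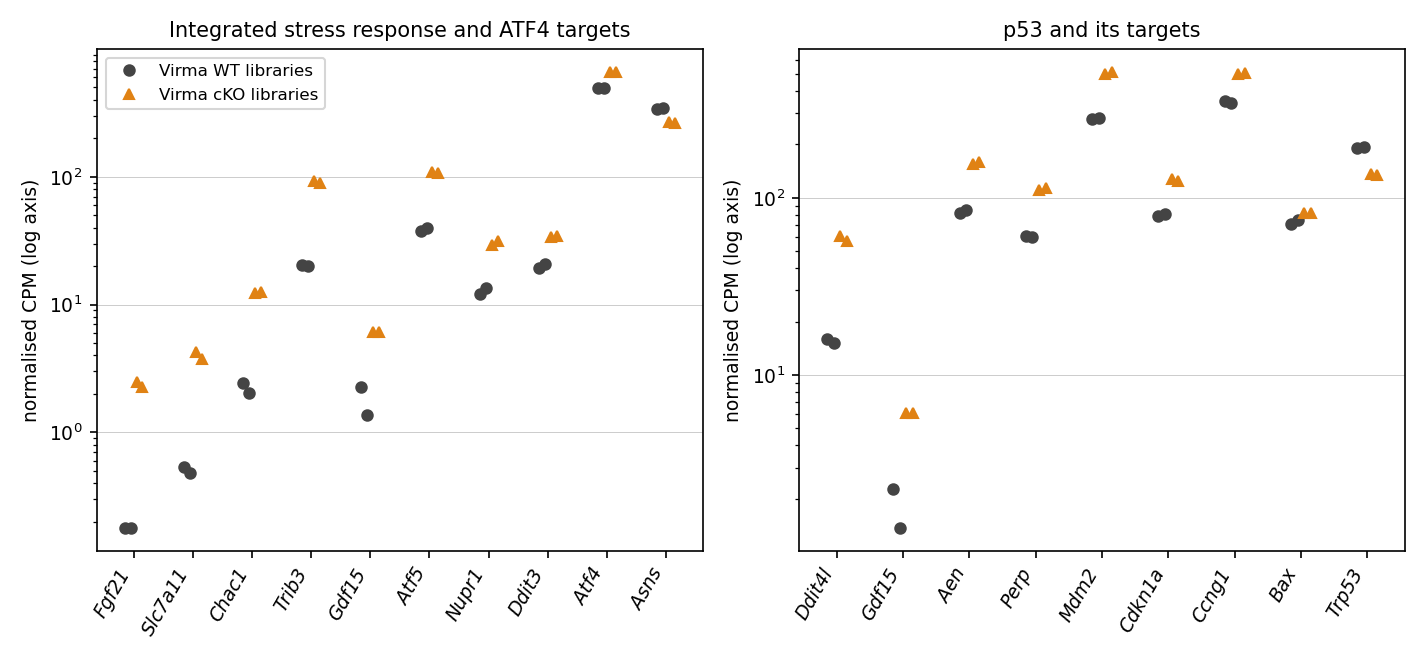
Normalised CPM on a log axis in each Virma WT library (circles) and Virma cKO library (triangles) for 10 genes of the integrated stress response and for p53 (Trp53) with 8 of its targets. The cKO libraries lie above the WT libraries except in Asns and Trp53.

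Several lists of biosynthesis and growth genes held more falls than rises. Falls were also more frequent among abundant genes in general. In the quintile of genes with a mean of 82 CPM or more, 52.8% fell and 25.5% rose (median −0.14). Many genes of the lists here and in the paragraphs below are abundant, and the part of their level was not tested. In cholesterol and fatty acid synthesis 26 of 29 genes fell and 0 rose (median −0.57). The count was 26 without each library in turn, and 1 gene rose without either Mettl3 WT library. Insig1, which holds the sterol sensor in the endoplasmic reticulum, stood at 78.4 and 73.1 CPM in the WT libraries and 36.4 and 35.8 CPM in the cKO libraries (−1.07, SE 0.07), and the desaturase Scd2 at 1260.5 and 1230.2 CPM against 635 and 638 CPM (−0.97, SE 0.03). Of 20 glycolysis genes 16 fell and 2 rose (median −0.55). Lactate dehydrogenase (Ldha) fell from 744 and 746 CPM to 282 and 278 CPM (−1.42, SE 0.04), the glucose carrier Slc2a3 by 1.24 (SE 0.03) and the phosphofructokinase Pfkl by 1.19 (SE 0.04), while Pdk1, which inhibits pyruvate dehydrogenase, rose by 0.51 (SE 0.06). Other hypoxia targets fell in 9 of 18 and rose in 4, with the collagen prolyl hydroxylases P4ha1 and P4ha2 lower by log2 fold changes of −1.16 and −1.77. In serine, one-carbon and nucleotide synthesis 18 of 25 fell and 3 rose. Threonine dehydrogenase (Tdh), on which mouse stem cells depend, fell from 194 and 188 CPM to 44.5 and 43.2 CPM (−2.13, SE 0.06), and the ATF4 targets Mthfd2 (0.79) and Psat1 (0.79) were among the 3 that rose.

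Nuclear genes of the respiratory chain fell in 24 of 28, while 0 rose (median −0.36), led by the ATP synthase subunit Atp5a1 (−0.78, SE 0.03). Among the mitochondrial genome's own genes, mt-Co1 fell from 6995 and 6637 CPM to 4143 and 4075 CPM (−0.73, SE 0.03). In contrast, mt-Cytb rose by 0.47 (SE 0.13), mt-Nd1 by 0.39 (SE 0.1) and mt-Nd4 by 0.24 (SE 0.04). Nuclear copies could share reads of these genes. Mitochondrial genes took 1.973 and 1.827% of all counts in the WT libraries and 2.24 and 2.113% in the cKO libraries. Aminoacyl-tRNA synthetase genes fell in 16 of 20, while 2 rose (median −0.36), led by Kars (−0.73, SE 0.04). With total counts as scaling 11 of them fell. Ribosome biogenesis genes fell in 12 of 26, while 5 rose (median −0.11), and with total counts as scaling 10 fell and 10 rose (median 0.02). There Rrp9 (−0.8, SE 0.06) stood against Polr1b, a subunit of RNA polymerase I (0.53, SE 0.05). Mycn, the MYC family member of early embryos, fell from 66.5 and 66.8 CPM to 24.7 and 24 CPM (−1.46, SE 0.1).

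DNA replication and mitosis genes fell in 26 of 28, while 0 rose (median −0.42), in a narrow band from −0.66 in the mitotic kinase Plk1 to −0.19 in the polymerase subunit Pola1. The replicative helicase subunit Mcm2 stood at 497 and 506 CPM in the WT libraries and 317 and 319.8 CPM in the cKO libraries (−0.66, SE 0.04), and the ubiquitin-conjugating enzyme Ube2c at 141 and 148 CPM against 94.8 and 96.2 CPM (−0.6, SE 0.06). Mki67, a marker of cycling cells, stood at 680.1 and 653 CPM against 677 and 677 CPM and overlapped between genotypes (0.02, SE 0.04). Aurkb was not called (0.04, SE 0.07). The G1 genes divided: Ccnd3 fell by 0.96 (SE 0.05) and Cdk2 by 0.66 (SE 0.07), whereas the inhibitor Cdkn2b rose by 0.96 (SE 0.18) and Cdk6 by 0.89 (SE 0.1). In that list 7 of 23 were higher and 6 lower, near the 26.2% and 26.1% of all genes.

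Most promoters of these genes hold a common motif. The CCAAT box, CCAAT or ATTGG on the other strand, is the binding motif of the factor NF-Y and is common in cell cycle and chaperone promoters. Promoters from RefSeq (GRCm38.p6, 250 bases before to 50 after the transcription start) were matched for 24 of 28 DNA replication and mitosis genes, and 22 of the 24 (91.7%) held the box. In the unfolded protein response and chaperones 14 of 16 matched promoters (87.5%) held it. These were not the same genes as the 14 of 19 that fell. Over all 27025 promoters in the table it was found in 10248 (37.9%), and over the 22 gene lists with at least 80% of promoters matched and at least 10 promoters its share ranged from 11.8 to 91.7%. The box was not limited to genes that fell: it stood in 11 of 16 promoters (68.8%) of the contractile genes, most of which rose, and in those of Mki67 (0.02) and Canx (0.0), which were not called. Hspa5, which rose (0.08), held 4 boxes in the 250 bases before the start. In the same stretch Xbp1 (−0.77), Cdc6 (−0.47) and Cdt1 (−0.42), which fell, held 0. Of all genes tested only 79.2% had a promoter in the table, and 75.8 and 78.4% of the genes called at least 2-fold higher and lower, so a comparison of motif shares between those sets is void and is not given. The promoters of 6 genes are shown, 4 of the 5 most lowered replication and mitosis genes (Ccna2 being the other) and 2 lowered chaperones, as the 250 bases before the start, with each CCAAT box in capitals.
Plk1 (chr7:122159185-122159434, plus strand): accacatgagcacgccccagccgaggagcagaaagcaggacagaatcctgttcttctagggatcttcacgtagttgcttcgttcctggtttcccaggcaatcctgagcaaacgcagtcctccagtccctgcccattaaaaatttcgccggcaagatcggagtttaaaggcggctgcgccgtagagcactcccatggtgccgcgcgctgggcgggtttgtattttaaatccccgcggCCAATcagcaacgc
Mcm2 (chr6:88898781-88899030, minus strand): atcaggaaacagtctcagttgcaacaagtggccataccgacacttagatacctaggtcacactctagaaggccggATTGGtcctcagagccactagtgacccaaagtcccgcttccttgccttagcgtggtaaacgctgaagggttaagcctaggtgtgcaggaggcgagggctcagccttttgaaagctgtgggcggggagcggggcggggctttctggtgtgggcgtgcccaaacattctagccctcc
Mcm3 (chr1:20820313-20820562, minus strand): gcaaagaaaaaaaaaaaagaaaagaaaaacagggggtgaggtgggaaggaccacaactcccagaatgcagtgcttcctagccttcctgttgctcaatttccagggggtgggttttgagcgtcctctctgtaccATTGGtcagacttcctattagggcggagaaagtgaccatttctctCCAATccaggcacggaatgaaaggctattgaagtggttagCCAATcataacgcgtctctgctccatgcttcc
Ube2c (chr2:164769679-164769928, plus strand): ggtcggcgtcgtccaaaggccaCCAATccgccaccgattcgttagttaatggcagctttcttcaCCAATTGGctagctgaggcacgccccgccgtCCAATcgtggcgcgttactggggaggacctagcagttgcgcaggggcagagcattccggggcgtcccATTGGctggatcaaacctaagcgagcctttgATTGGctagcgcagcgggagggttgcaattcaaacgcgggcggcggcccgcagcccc
Hsp90b1 (chr10:86705445-86705694, minus strand): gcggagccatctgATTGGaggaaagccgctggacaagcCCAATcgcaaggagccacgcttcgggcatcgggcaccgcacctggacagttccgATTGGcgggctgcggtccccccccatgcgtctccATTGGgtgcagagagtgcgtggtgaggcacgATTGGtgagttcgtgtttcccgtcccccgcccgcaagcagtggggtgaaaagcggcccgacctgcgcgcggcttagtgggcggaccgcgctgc
Calr (chr8:84846932-84847181, minus strand): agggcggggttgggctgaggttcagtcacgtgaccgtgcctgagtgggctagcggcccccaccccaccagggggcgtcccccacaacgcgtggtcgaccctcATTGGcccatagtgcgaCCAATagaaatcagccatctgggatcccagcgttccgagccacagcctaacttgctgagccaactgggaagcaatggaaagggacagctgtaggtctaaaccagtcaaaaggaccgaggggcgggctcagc
The boxes number 1, 1, 3, 6, 5 and 2 in that order. A match is a description of these letters, not evidence of binding.

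In the germline list another motif was frequent: CACGTG, which reads the same on both strands and is bound by MYC-family and related factors, stood in 10 of 17 promoters (58.8%), the highest share among the same 22 lists, which ranged from 0 to 58.8% with a median of 9.5%. Of these 17 genes 7 rose and 2 fell.

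Genes that write, read and process RNA were mixed. Besides Virma, the catalytic subunit Mettl3 stood at 45.8 and 44.3 CPM in the WT libraries and 34.1 and 33.6 CPM in the cKO libraries and fell by 0.42 (SE 0.09), as did Rbm15b (−0.53, SE 0.06). The adaptor Rbm15 stood at 42.6 and 43.3 CPM against 85.5 and 81.8 CPM and rose by 0.96 (SE 0.07), and Wtap (0.62, SE 0.05), Cbll1 (0.52, SE 0.11) and the separate methyltransferase Mettl16 (0.44, SE 0.05) rose too. Mettl14 (−0.05) and Zc3h13 (0.11) were not called, so that of 9 writer genes 4 rose and 3 fell, where 26.2% and 26.1% of all genes did.

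Among 16 readers and demethylases 4 rose and 6 fell, where 26.2% and 26.1% of all genes did. The YTH-domain reader Ythdf2, which recruits the deadenylase to methylated messages, stood at 128 and 130.4 CPM in the WT libraries and 278 and 288 CPM in the cKO libraries (1.13, SE 0.05), the nuclear reader Ythdc1 at 284 and 281 CPM against 521 and 529 CPM (0.89, SE 0.04), and Ythdf1 (0.4) and Ythdf3 (0.38) rose less. Ythdc2, of the same family, was not called (−0.07). Igf2bp3 fell by 0.76 (SE 0.06) and Fmr1 by 0.49 (SE 0.06). The demethylases Fto (0.04) and Alkbh5 (0.05) were not called. Cleavage and polyadenylation factors, which bind VIRMA in other cells, were lower in 11 of 20 and higher in 5 (median −0.28), with the scaffold Sympk at 255 and 276 CPM against 159.8 and 159.6 CPM (−0.74, SE 0.05) and the endonuclease Cpsf3 (−0.61, SE 0.05) lowest. With total counts as scaling 8 fell and 6 rose. SR splicing factors and kinases fell in 12 of 21, while 3 rose (median −0.11; 7 and 4, median 0.02, with total counts as scaling), and mRNA decay genes fell in 15 of 34 and rose in 9 (9 and 17 with total counts; 5 rose without replicate 2 of Virma WT). In the decay list Cnot10 (−0.76, SE 0.06) and the AU-rich element binding gene Zfp36l1 (−0.62, SE 0.07) had the largest falls. Chromatin lists were as mixed. Polycomb and DNA methylation enzymes fell in 11 of 27 and rose in 5 (9 without either Mettl3 WT library), with Tet1 higher by 0.81 (SE 0.05), and repressors of endogenous retroviruses fell in 7 of 21 and rose in 5, with the corepressor Trim28 at 1028 and 1059.8 CPM against 644 and 659 CPM (−0.68, SE 0.03). Under total counts the medians of these 2 lists were 0.02 and 0.10, in place of −0.11 and −0.03.

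Single genes with the largest changes lay partly outside the lists. Among falls, Tcf23, a helix-loop-helix factor, stood at 258 and 321 reads in the WT libraries and 16 and 20 in the cKO libraries (−3.98, SE 0.25). Tfec, of the MITF family, fell by 3.66 (SE 0.31), the sialic acid lyase Npl by 3.42 (SE 0.1, from 86.4 and 86.4 CPM to 8.27 and 7.84 CPM) and the calcium channel subunit Cacna1d by 3.46 (SE 0.43). Ffar3, a receptor of short fatty acids, had 39 and 49 reads in the WT libraries and 2 and 0 in the cKO libraries, and no fold is given for it. Among rises, the phosphodiesterase Pde1c stood at 2.69 and 2.09 CPM against 17.3 and 18.4 CPM (2.89, SE 0.2), and the kinase Ikbke of antiviral signalling at 3.82 and 3.7 CPM against 16.5 and 16.7 CPM (2.14, SE 0.18). In each of these genes the cKO libraries lay wholly on one side of the WT libraries, which the rule for naming them required. Madcam1 (2.2), Inka1 (2.04), Tent5b (2.0), Col20a1 (1.93) and Cadps2 (1.84) were also among the largest rises. Among the called genes with the most reads, Ncl, a nucleolar protein gene, rose from 5451 and 5432 CPM to 6903 and 6966 CPM (0.35, SE 0.03), the poly(A)-binding protein gene Pabpc1 by 0.27 (SE 0.03), and Hspa8, a constitutive chaperone, fell from 6512 and 6423 CPM to 4995 and 5038 CPM (−0.37, SE 0.03). Genes of at least 100 CPM with the smallest differences, such as Smarce1 of the chromatin remodelling complex (209 and 198 CPM against 207 and 201 CPM) and the importin Kpna4 (124 and 116 CPM against 119.8 and 119.9 CPM), overlapped between the genotypes.

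The structure of a gene went with its direction of change. m6A is placed mostly in long internal exons and last exons, because the proteins deposited at exon junctions keep the writer away from nearby sequence, so exon density was described over the 13944 genes with a transcript in GENCODE M21. In the quintile with the fewest exons per kilobase of transcript (0.0885 to 1.47), 33.9% of genes rose and 16.3% fell, and the median log2 fold change was 0.19. In the quintile with the most (5.35 to 16.7), 14.2% rose and 39.7% fell, with a median of −0.16. The quintiles between them lay in order, with medians of 0.15, 0.04 and −0.05. Spearman's rho of the log2 fold change with exons per kilobase was −0.2 over these genes, which share libraries and are not independent.

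Genes with a long internal exon stood out in the same way. In the quintile whose longest internal exon had 436 bases or more, 41.6% rose and 14.9% fell (median 0.22), while the other 4 quintiles had medians from −0.09 to 0.04. Among the genes with the most reads the contrast was wider: in the upper tercile of mean CPM 48.1% rose and 27.6% fell where exons were sparse (median 0.12), against 8.71% and 69% where they were dense (median −0.29), while in the lower tercile the medians were 0.2 and 0.1. Long transcripts also rose more often, with 37.9% higher and 19.3% lower in the longest quintile and 18.3 and 31.7% in the shortest. Exon density separated genes within terciles of length too, by medians of 0.2 and −0.23 among the shortest and 0.25 and −0.05 among the longest. The pentamer GGACT, the commonest form of the m6A consensus, gave quintiles with medians between −0.03 and 0.04. From its lowest to its highest quintile the median went from −0.11 to 0.03 in the tercile of shortest transcripts and from −0.17 to −0.07 in the upper tercile of mean CPM. GC content gave medians between −0.02 and 0.06. The level of a gene did go with its direction: the quintile with the lowest mean CPM had a median of 0.26, with 13.5% higher and 6.96% lower, and that with the highest a median of −0.14, with 25.5% higher and 52.8% lower.

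Exon density was also compared in the other contrasts of the same fit, a check added after these values were seen. In Mettl3 cKO against Mettl3 WT the medians ran from 0.05 in the sparsest quintile to −0.03 in the densest. In Virma WT against Mettl3 WT, where neither group carries a labelled deletion, they ran from 0.13 to −0.07, with 31.8% higher and 14% lower in the sparsest quintile and 18.9 and 32.4% in the densest. That contrast shares the Virma WT libraries with the main one, so the values are set side by side and no correlation is given. The same order of quintiles thus stood between the groups labelled WT, over a range of medians smaller than that in Virma cKO against Virma WT. With the trend in length and GC content removed the Virma medians ran from 0.08 to −0.19, and with the longest transcript of any kind per gene the difference between the outer quintiles was 0.22 in place of 0.35. Removing the same trend took the quintile with the longest internal exons to 32.4% higher and 21.1% lower. Its median was then 0.1, and those of the other quintiles lay from −0.13 to −0.03. The cause of these patterns was not tested.

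**Figure D5:**
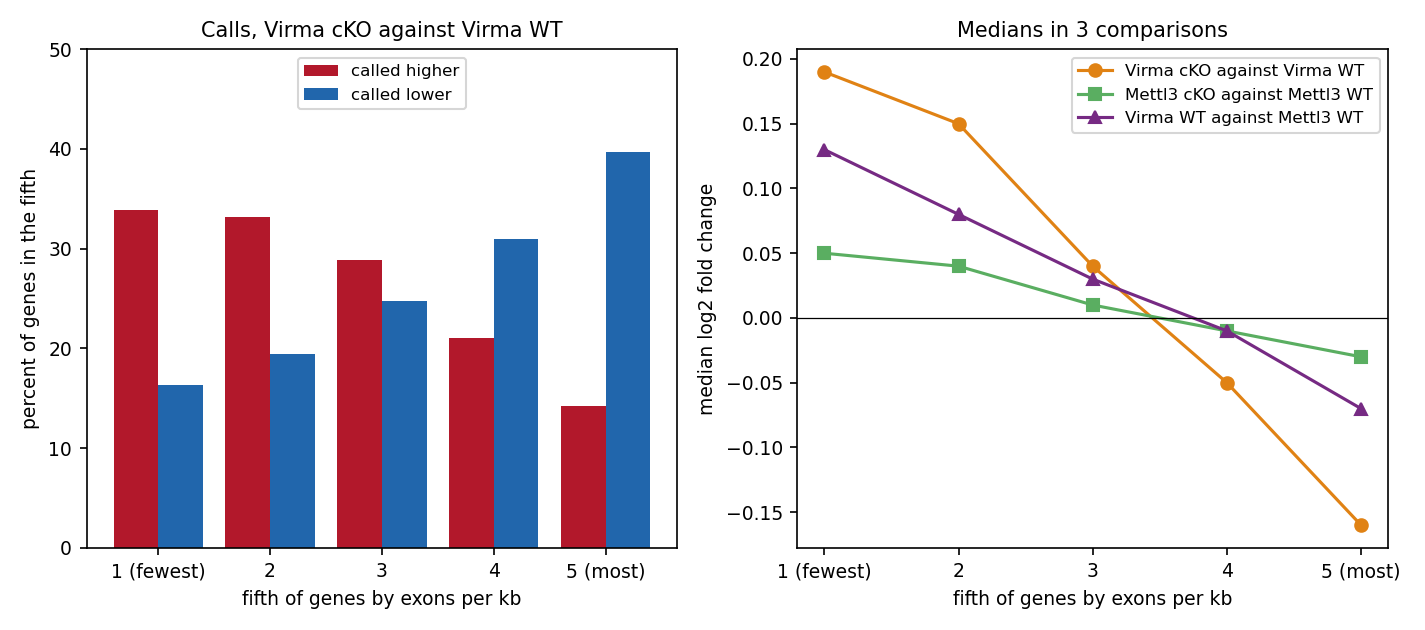
Left, percent of genes called higher and lower in Virma cKO against Virma WT in each quintile of exons per kilobase, from fewest to most. Right, median log2 fold change in the same quintiles for Virma cKO against Virma WT (0.19 to −0.16), Mettl3 cKO against Mettl3 WT (0.05 to −0.03) and Virma WT against Mettl3 WT (0.13 to −0.07).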

How the data were processed

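RNA-seq was read from raw counts per gene that the authors deposited for 8 libraries, with 2 in each of 4 groups. Per the submitters' processing notes, the build was mm39 and the tools named include STAR 2.7.11b, Subread, Trim Galore and FastQC 0.12.1, besides DESeq2. Per the labels' protocols libraries were made with SMARTer Stranded Total RNA-Seq and VAHTS Universal kits, and the labels do not say which served which sample. The annotation and the strand setting are stated in no source used here, so overlapping and antisense genes cannot be separated. Of 21812 symbols 3527 had no count. Genes were filtered with filterByExpr over the 4 groups and tested with edgeR 4.0.16 (R 4.3.3, TMM factors, robust quasi-likelihood, Benjamini-Hochberg threshold 0.05) on all groups, with the Virma cKO pair merged to its rounded mean (3 residual degrees of freedom). Alternatives used other settings of edgeR, or DESeq2 1.42.0. The fit was also run on simulated data with the same spread for all genes and few changed genes. That setting is simpler than these data, so nothing is drawn from it here. Gene structure came from GENCODE M21 on GRCm38, a build other than mm39, by symbol and longest coding transcript. Promoters came from RefSeq GRCm38.p6.

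The comparison, the gene lists and their members were chosen with earlier results of these data known. Lists share some genes, such as Slc7a11, P4ha2 and Gdf15, which are counted in each, so the counts of different lists are not independent. Genes were named by rule: Virma, the 15 largest rises and falls among called genes of at least 2 average log2 CPM without overlap, the 8 most abundant called genes per direction, the 8 genes of at least 100 CPM with the smallest changes, and up to 5 members per list with the largest changes (all members for lists of 9 or fewer). Predicted genes and clone names were left out, and some genes that the rule names are not reported here. Named outside the rule, after their values were seen, were Actb, Alkbh5, Apoa1, Apob, Apoe, Asns, Atf4, Aurkb, Cdh1, Cdkn1a, Col1a1, Ddit3, Dppa4, Dusp6, Ern1, Esrrb, Fbln1, Fgf4, Fgfr1, Fgfr2, Fosb, Fto, Jun, Kit, Klf2, Krt8, Lama2, Lamb3, Lamc1, Lefty1, Mdm2, Mfap5, Mki67, Nodal, Pdk1, Pola1, Sox2, Spred1, Spry2, Spry4, Tdgf1, Trp53, Ythdc2 and Ythdf3.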

Additional observations from a re-analysis of the deposited data

How the results depend on the processing

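Counts of called genes stayed within 1.5 times those reported under every alternative run: 7183 genes with DESeq2, 7433 with DESeq2 size factors, 7591 with total counts, 7290 without a filter, 7477 with a minimum of 1 CPM, 5931 at an adjusted p of 0.01, 8914 with all libraries separate, 5982 with both Virma pairs merged, 9755 with the Virma line on its own, and 6036 to 8674 with 1 library left out in turn. The replicate numbers did not pair the samples (correlation of deviations −0.0182 in the Virma line and 0.0155 in the Mettl3 line), and with the number as a replicate block 8960 genes were called, 4585 higher and 4375 lower. With the trend in length and GC content removed 7344 genes were called, 3040 higher and 4304 lower (41.4% higher). Of values for single genes, 6 changed sign and were called in the main fit, the alternative or both. With total counts these were Eef2 (0.03), Hgs (0.13), Mybbp1a (0.13) and Ubxn4 (0.13), and with the trend removed Canx (−0.11) and Dnaja1 (−0.15). Changes of sign without a call in either fit are not counted. Total counts move all values up by construction. The cause of the changes in Canx and Dnaja1 was not tested. Over the genes named by rule and all alternatives, 201 values lost their call and 25 gained one. A comparison of promoter motifs over all called genes was not run, since fewer than 80% of them had a promoter in the table. Few reads limit the precision of genes such as Slc7a11.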
